A study of Mus musculus with 9 samples.

Results

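The PKM2 knock-in embryonic stem (ES) cell line was compared with the wild type line over the days of embryoid body culture. The cells of the knock-in line are called PKM2 cells. The comparison takes 6 of the 9 arrays of the series, which are the 3 arrays of the PKM2 knock-in line and the 3 arrays of the wild type line, paired by day. All cells were mouse ES cells, and all groups shared the same culture. Undifferentiated cells (day 0) were kept with LIF, the cytokine that holds mouse ES cells in self-renewal. Embryoid bodies, floating aggregates in which ES cells begin to form the germ layers, were grown without LIF and sampled at day 3 and day 7. The labels give the genotypes as wild type, PKm1 knock-in and PKm2 knock-in and name no further allele, clone or parental strain. Each genotype was 1 line with 1 array per day, so the days serve as the repeats, p-values measure the spread over days and between these arrays, and a difference between genotypes cannot be told apart from a difference between 3 separately kept lines. The PKM1 knock-in line entered the same fit, against the same wild type arrays, and is given for part of the genes and lists. Where it is not given, a difference is not to be read as particular to the PKM2 knock-in line.

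Pyruvate kinase makes pyruvate and ATP in the last step of glycolysis. The Pkm gene gives PKM1 or PKM2 through a choice between mutually exclusive exons, a choice made by splicing factors such as Ptbp1, Hnrnpa1 and Hnrnpa2b1. PKM1 is active without an activator and is typical of muscle and brain, while PKM2 responds to fructose bisphosphate and other ligands and is the form of embryonic and many dividing cells. Pklr encodes the liver and red cell enzyme.

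Each array held 62976 spots, and 54.2% to 61.6% of those that were not controls were well above background. No spot was saturated. Pairs of arrays correlated at 0.892 to 0.984 over all genes tested. The day 7 array of the PKM1 knock-in line, which enters the fit, stood furthest apart, at 0.892 to 0.947 with the others. The day 7 array of the PKM2 knock-in line correlated best with the day 3 array of its own line (0.975) and at 0.943 with day 7 wild type. It was also the only array on its slide. The day 0 arrays of both lines lay on 1 slide, so that the day 0 difference is also the difference within a slide, while the day 3 and day 7 pairs lay on different slides. The Y-linked genes differed within the PKM2 cells. Eif2s3y, a translation factor subunit encoded on the Y chromosome, had log2 signals of 11.75, 7.67 and 4.38 at days 0, 3 and 7 in the PKM2 cells and of 6.36, 5.76 and 4.36 in wild type. Ddx3y, a Y-linked RNA helicase, had 9.80, 4.75 and 2.42 in the PKM2 cells and 5.39, 2.32 and 2.32 in wild type. Both were far above wild type at day 0 and level with it at day 7. In the PKM1 knock-in line Eif2s3y was at 8.12, 8.33 and 9.13 and Ddx3y at 4.84, 3.19 and 5.30. The labels give the 3 PKM2 arrays as 1 line. Whether they hold the same cells, on which the use of days as repeats rests, was not tested, nor was the part of this in the other differences.

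The PKM2 knock-in line differed from wild type first of all in Mest, an imprinted gene of the hydrolase fold family that is expressed from the paternal allele, and in Nudt12, a peroxisomal enzyme that hydrolyses NADH and caps of RNA. Both rose, Mest by more than any other gene called. On the log2 scale of signals scaled to the 75th percentile of each array, Mest was at 4.42, 4.76 and 6.26 on the wild type arrays of days 0, 3 and 7 and at 11.45, 12.25 and 12.29 on the PKM2 knock-in arrays. The lowest knock-in array was thus far above the highest wild type array. The difference was 6.85 ± 0.31 (SE of the fit, n = 3 arrays per line), or 115-fold, with an adjusted p of 0.00312 by limma with Benjamini-Hochberg adjustment. Leaving out the day 0 pair, the day 3 pair, the day 0 wild type array or the day 3 PKM2 knock-in array ended both calls (0 genes called). The same happened when the fit held only the 6 arrays compared or took the slide as a block. Leaving out a pair, here and below, left out all arrays of that day, the PKM1 knock-in array among them. Where a single array was left out, the PKM1 knock-in arrays stayed in the fit. The difference was then not the mean of the remaining pairs alone. All 3 Mest probes were higher on every PKM2 knock-in array than on any wild type array. The probe that stands for the gene was well above background on all of them, while on the wild type arrays another was so at day 7 only and the third on none.

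Mest has transcripts with separate starts, and its probes carry accessions of 2 of them. The 250 bases before 2 starts of Mest are shown because this gene carries the main difference between the lines. They are from RefSeq on build GRCm38.p6, plus strand, read 5′ to 3′, at chr6:30733256-30733505 and chr6:30737800-30738049, and capitals mark each CG dinucleotide, the pair of bases whose methylation holds imprints. Of the 2 genes called, 1 had an entry in the table of promoters.
Mest upstream start: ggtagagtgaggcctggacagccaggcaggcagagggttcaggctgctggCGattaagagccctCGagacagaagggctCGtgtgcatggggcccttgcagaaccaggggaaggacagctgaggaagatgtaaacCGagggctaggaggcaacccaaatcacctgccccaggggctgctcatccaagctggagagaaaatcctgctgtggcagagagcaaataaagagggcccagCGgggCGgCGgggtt
Mest downstream start: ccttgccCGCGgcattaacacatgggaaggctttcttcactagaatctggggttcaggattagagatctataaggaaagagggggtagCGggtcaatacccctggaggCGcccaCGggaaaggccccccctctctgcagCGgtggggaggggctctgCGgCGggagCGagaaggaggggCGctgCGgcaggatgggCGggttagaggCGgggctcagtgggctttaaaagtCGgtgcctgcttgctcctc
The search was for the letters CG, which read the same on both strands. The first stretch holds 7 of them, and 46.3% of the 32851 promoters of the table hold as many or more in the same 250 bases. The second holds 14, with 29.4% of promoters holding as many or more, against a median of 6 over all promoters. Methylation was not measured here, so these letters are a description of the sequence.

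Nudt12 was not well above background on any wild type array, at 2.65, 2.32 and 2.49, and was at 5.90, 6.82 and 6.79 in the PKM2 cells. It was well above background on 3 of 3 arrays of each knock-in line, through which it passed the filter. Its wild type signals lay at or near the floor of 5 (2.32 on the log2 scale), which can narrow the spread behind its p-value. The groups did not overlap, which adds no support for the same reason. Gc, Mageb4 and Nap1l5, below, also passed the filter through knock-in arrays. Its level was at least 5.66-fold higher in the knock-in line, a bound taken against the lowest signal well above background on each wild type array, and the fitted difference was 4.02 ± 0.27 (SE, n = 3, limma adjusted p = 0.0209). Under a floor of 1, a floor of 20, no filter, the filter on all 9 arrays or normexp background correction, 1 gene was called, which was Mest. The same held without the day 7 pair, the day 3 or the day 7 wild type array, or the day 7 PKM2 knock-in array.

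In all, 15016 genes were tested, of which 2 (0.0133%) rose and 0 (0%) fell at a limma adjusted p under 0.05. Another 5 genes had an adjusted p under 0.1. At an unadjusted p under 0.05 there were 1996 genes (13.3%), 937 of them higher and 1059 lower, where 750.8 would be the share of 0.05. The threshold on the adjusted p therefore leaves most of the differences below without a call, and they are given as values. In simulated data on 15013 of these genes, 200 were shifted, 50 each by 1, 2, 3 and 4 log2 units. Shifts of 2 units were called in 66% of cases and shifts of 1 unit in 6%, and 14 genes with no shift were called. The share called depends on how many genes are shifted and by how much. The 66% therefore does not carry over to these data, where 2 genes were called.

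The called genes were also set against the PKM1 knock-in line. Mest was at 11.18, 12.06 and 12.16 on the PKM1 knock-in arrays, so that PKM2 minus PKM1 knock-in was 0.20 (95% interval -0.55 to 0.95, limma adjusted p = 0.854). Nudt12 was at 6.33, 6.61 and 6.41 there, with a difference of 0.05 (95% interval -0.60 to 0.71, limma adjusted p = 0.956). The differences from wild type were 6.65 for Mest and 3.96 for Nudt12 in the PKM1 knock-in line, and both contrasts use the same wild type arrays. Between the knock-in lines 0 genes of 15016 (0%) were called by limma, with 1167 at an unadjusted p under 0.05.

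**Figure D1:**
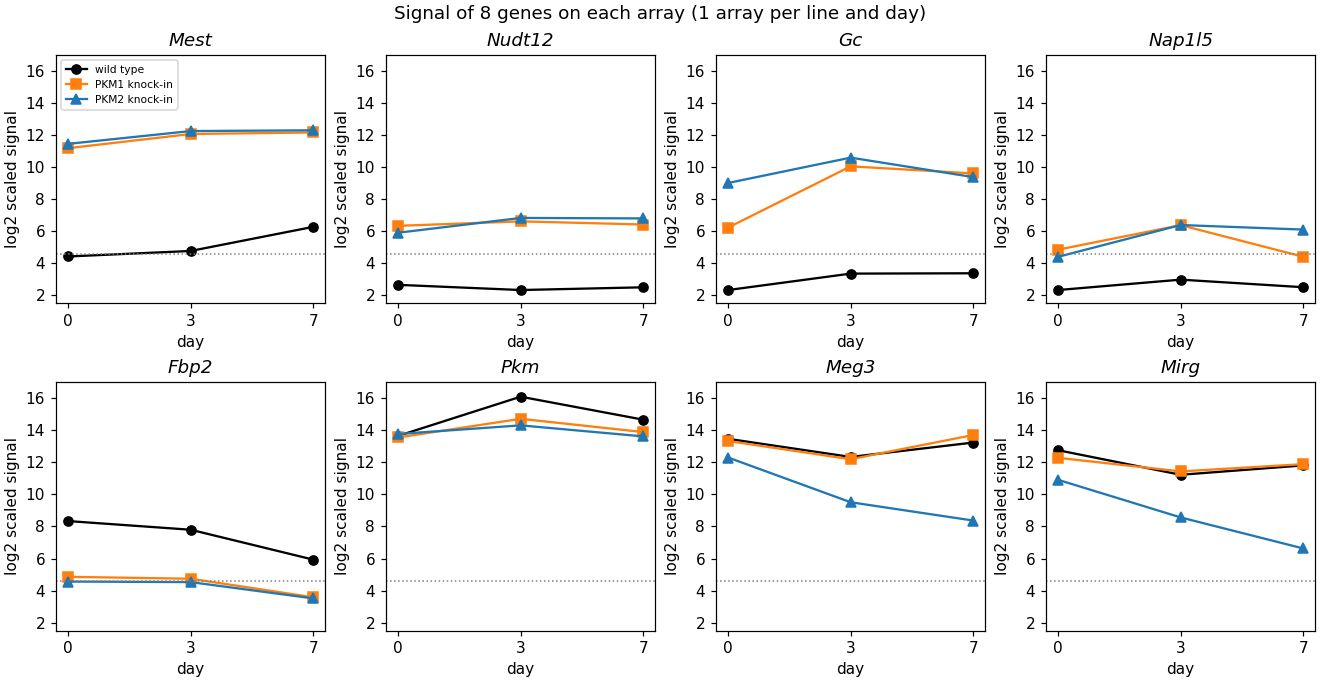
Log2 scaled signal (y axis) of 8 genes on each of the 9 arrays by day (x axis), with wild type in black circles, PKM1 knock-in in orange squares and PKM2 knock-in in blue triangles. The dotted line is the highest of the arrays' lowest signals well above background. Mest is at 4.42 to 6.26 in wild type and at 11.45 to 12.29 in the PKM2 cells, and Mirg is at 11.23 to 12.76 in wild type, at 6.63 to 10.91 in the PKM2 cells and at 11.44 to 12.29 in the PKM1 knock-in line.

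Pkm itself was read by 1 probe, and where that probe lies relative to the exons that distinguish PKM1 from PKM2 is not given in the sources used here, so it does not check the knock-in. Its log2 signal was 13.66, 16.10 and 14.67 in wild type, 13.78, 14.31 and 13.63 in the PKM2 cells and 13.56, 14.72 and 13.89 in the PKM1 knock-in line. The lines were level at day 0 and wild type was above both at days 3 and 7. The difference of PKM2 knock-in from wild type was -0.91 ± 0.35 (SE, n = 3, limma adjusted p = 0.344), with single days at 0.12, -1.79 and -1.04. It missed the threshold, and it was -0.46 without the day 3 pair. The signal of the Pklr probe was not well above background in either line.

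Of 10 regulators of Pkm splicing tested 0 were called, with 8 higher and 2 lower and a median of 0.29, against a median of 0.04 over all genes tested and 8068 of 15016 higher. Hnrnpa2b1, which represses the PKM1 exon, was at 13.72, 13.83 and 13.40 in wild type and 14.82, 15.07 and 15.26 in the PKM2 cells, without overlap (1.40 ± 0.22, limma adjusted p = 0.12). Ptbp1, a repressor of the same exon, differed by 0.53 ± 0.22, and Srsf3, which promotes PKM2 exon use, by 0.65 ± 0.26, with 1 of its 3 probes in the other direction.

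The genes with the smallest p beside the 2 calls include enzymes of metabolism on both sides. Hk2, the hexokinase that starts glycolysis, was at 10.55, 11.25 and 10.24 in wild type and at 12.85, 12.45 and 12 in the PKM2 cells. Its arrays did not overlap, and the difference of 1.75 ± 0.25 missed the threshold (limma adjusted p = 0.11), with 1.31 in the PKM1 knock-in line. Mthfd2, a mitochondrial enzyme of folate metabolism, was at 11.46, 10.16 and 10.53 in wild type and 12.48, 11.71 and 12.20 in the PKM2 cells (1.41 ± 0.20, limma adjusted p = 0.11). Sfxn5, a mitochondrial carrier of the sideroflexin family, differed by 1.55 ± 0.18, and Dck, which phosphorylates deoxynucleosides for salvage, by 1.42 ± 0.19. In the PKM1 knock-in line the differences were 1.33 for Mthfd2, 1.35 for Sfxn5 and 0.78 for Dck. Fbp2, the muscle form of fructose bisphosphatase that acts against glycolysis, was at 8.34, 7.80 and 5.93 in wild type and 4.56, 4.53 and 3.51 in the PKM2 cells. Only 1 of the 3 knock-in arrays was well above background for it, and the difference of -3.16 ± 0.28 had a limma adjusted p of 0.0619, with -2.96 in the PKM1 knock-in line. Under quantile normalization Fbp2 passed the threshold.

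Gc, the vitamin D binding protein secreted by endoderm and liver, had an adjusted p under 0.1. It was not well above background on any wild type array, at 2.32, 3.35 and 3.37, and was at 9.01, 10.59 and 9.37 in the PKM2 cells, at least 50.2-fold higher. The fitted difference was 6.64 ± 0.61 (limma adjusted p = 0.0619) and the PKM1 knock-in line had 5.61. Another probe of Gc was not well above background in either line, so the gene rests on 1 probe of 2. With trend and robust moderation Gc passed the threshold.

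Other genes among the 15 of smallest p in each direction were Pmaip1, which encodes the death-promoting protein Noxa (1.53 ± 0.18), Mxd1, a partner of Max that opposes Myc (1.63 ± 0.22), and Ufsp2, a protease of the UFM1 pathway (2.46 ± 0.31). Utp3, a factor of small ribosomal subunit assembly, differed by 1.44 ± 0.20, and the bicarbonate transporter Slc4a5 by 1.61 ± 0.19. Mageb4, a member of the melanoma antigen family, was not well above background in wild type and at least 4.15-fold higher in the PKM2 cells. None of these was called. Each was higher on 3 of 3 days, which was a condition of the choice. In the PKM1 knock-in line, Pmaip1, Mxd1, Ufsp2, Utp3, Slc4a5 and Mageb4 differed by 1.12, 0.99, 2.49, 0.96, 1.23 and 2.21. Olfr1052, an odorant receptor gene, was at 4.35, 3.09 and 3.20 in wild type, at 7.11, 7.65 and 5.21 in the PKM2 cells and at 4.28, 3.70 and 2.41 in the PKM1 knock-in line. It was well above background on 3 of 3 PKM2 arrays and on 0 of 3 arrays of each other genotype, so that it passed the filter through these arrays. Its level was at least 5.89-fold above wild type, and it was not called.

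On the lower side, Cd99, a cell surface protein of leukocyte and epithelial adhesion, was at 13.33, 12.12 and 12.99 in wild type and at 10.46, 8.23 and 8.30 in the PKM2 cells. The groups did not overlap, and the difference was -3.81 ± 0.44 (limma adjusted p = 0.109), against -1.77 in the PKM1 knock-in line. Ephx1, the microsomal epoxide hydrolase, differed by -2.14 ± 0.27 and Nfasc, a neural adhesion molecule, by -1.94 ± 0.20. Zfp750, a regulator of epidermal differentiation, differed by -2.13 ± 0.22 and Col6a3, a chain of collagen VI, by -1.88 ± 0.18. Col6a3 was well above background on 3 wild type arrays and 1 knock-in array. Its PKM2 knock-in signals at days 3 and 7 were 2.42 and 2.49, near the floor, and the groups overlapped. With the lowest signal well above background in their place, its level was 1.49-fold lower. Ccdc113, a protein of cilia, differed by -2.34 ± 0.30. All of these were lower on 3 of 3 days, which the rule that chose them required. In the PKM1 knock-in line, Ephx1, Nfasc, Zfp750, Col6a3 and Ccdc113 differed by -1.47, -1.40, -1.85, -1.15 and -2.24.

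**Figure D2:**
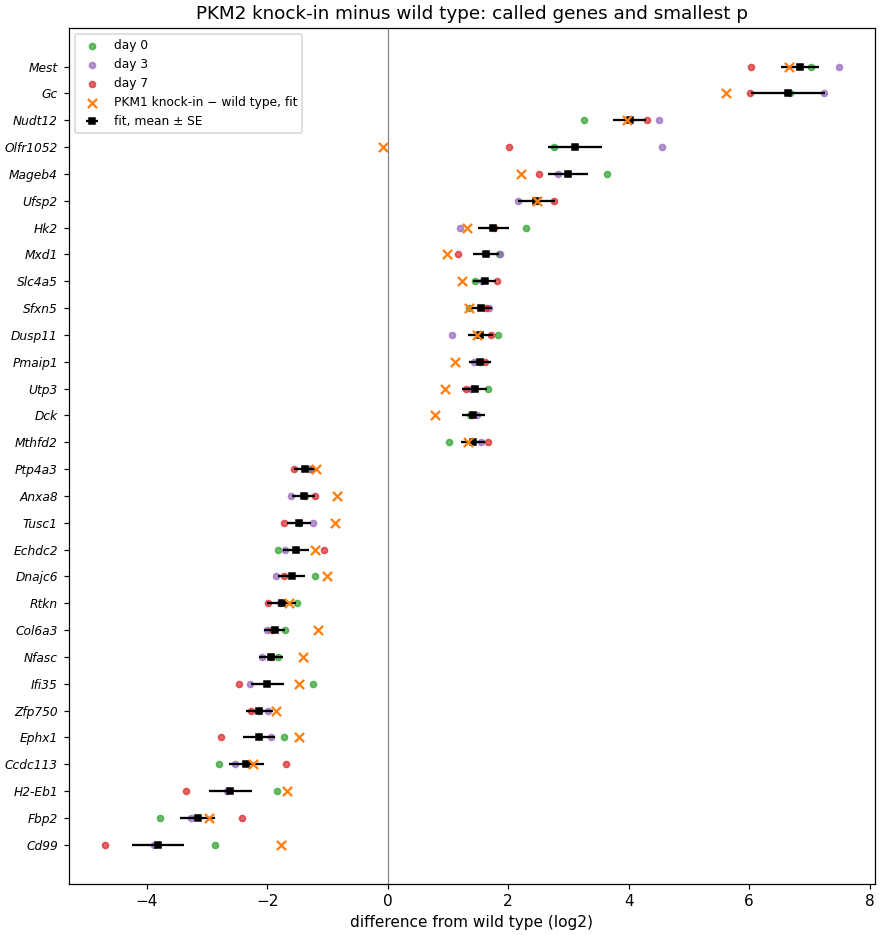
Difference from wild type (x axis, log2) of the 2 called genes and the genes of smallest p, 15 in each direction (y axis). Coloured points are single days of the PKM2 knock-in line, black squares with bars the fitted difference ± SE, and orange crosses the fitted difference of the PKM1 knock-in line. Mest is at 6.85 and Cd99 at -3.81, and the points of Olfr1052, Nudt12, Gc and Mageb4 are set against wild type signals that were not well above background.

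Larger sets of genes can be described by size without a test. There were 79 genes (0.526%) at least 2-fold above wild type on all 3 days and 191 (1.27%) at least 2-fold below. All 3 PKM2 knock-in arrays lay above all 3 wild type arrays for 1190 genes (7.92%) and below them for 979 (6.52%). The median of all genes moved with the scaling. It was 0.05, -0.05 and 0.13 at days 0, 3 and 7 with the 75th percentile and -0.10, 0.00 and -0.01 when arrays were scaled on detected probes, so small shifts of a list are read against it.

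Imprinted genes, expressed from 1 parental allele, were described as a list. Of 37 on the list 32 were tested, and 1 (Mest) was called, with 16 higher and 16 lower and a median of -0.01, which changed sign under 5 alternatives. Nap1l5, a paternally expressed retrogene, was not well above background in wild type, at 2.32, 2.97 and 2.50. It was at 4.40, 6.38 and 6.10 in the PKM2 cells, where 2 of 3 arrays were well above background (at least 3.07-fold higher, fitted difference 3.03 ± 0.44, limma adjusted p = 0.11), and its difference in the PKM1 knock-in line was 2.61. Copg2, the gene beside Mest, chosen for this account after its values were seen, was at 10.40, 10.19 and 10.09 in wild type and 11.50, 10.63 and 11.08 in the PKM2 cells (0.84 ± 0.22, limma adjusted p = 0.188). Copg2 and Mest lie near each other on opposite strands, and whether the probes tell the strands apart was not tested. Mcts2, a paternally expressed retrogene, differed by 1.10 ± 0.23.

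Meg3 and Mirg, maternally expressed noncoding RNAs of the Dlk1-Dio3 region, went the other way. Mirg was at 12.76, 11.23 and 11.81 in wild type, at 10.91, 8.57 and 6.63 in the PKM2 cells and at 12.29, 11.44 and 11.89 in the PKM1 knock-in line. The PKM2 knock-in line was below both other lines on each day, by most at day 7. The difference from wild type was -3.23 ± 0.71 (limma adjusted p = 0.14), that of the PKM1 knock-in line -0.06, and the difference between the knock-in lines -3.17 (95% interval -4.86 to -1.48, limma adjusted p = 0.599). Meg3, also named after its values were seen, was at 13.47, 12.34 and 13.24 in wild type and at 12.30, 9.51 and 8.37 in the PKM2 cells (-2.96 ± 0.76, limma adjusted p = 0.185), with 0.06 in the PKM1 knock-in line. Its 3 probes were all lower. Dlk1, the paternally expressed growth regulator of the same region, was at 9.73, 8.55 and 10.62 in wild type and at 9.57, 7.30 and 6.74 in the PKM2 cells, where the groups overlapped.

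Pluripotency genes gave no call. Of 17 core pluripotency genes tested 0 were called, 8 were higher and 9 lower, and the median was -0.03, with a sign that changed when single arrays were left out. Nanog, a core transcription factor of the naive state, was at 7.01, 6.67 and 7.58 in wild type and 7.53, 7.18 and 8.60 in the PKM2 cells (0.68 ± 0.21, limma adjusted p = 0.248). Of 18 genes of naive pluripotency 10 were higher and 8 lower (median 0.10, of either sign by normalization). The summed scaled signal of the core genes ranged from 225932 to 349332 over the wild type arrays and from 261123 to 290602 over the PKM2 knock-in arrays. This sum is carried by its brightest genes and does not show each marker. The defining markers Nanog, Sall4 and Zfp42 were well above background on 3 of 3 arrays of each line. Of 14 formative epiblast genes, which mark the exit from the naive state, 9 were higher (median 0.30). At days 0, 3 and 7, 9, 13 and 7 of them were higher, and the median was 0.00 without the day 3 pair. Lef1, a transcription factor of the Wnt pathway, was at 7.51 in wild type and 10.52 in the PKM2 cells at day 3, and at 7.16 and 7.45 at day 7. Dnmt3a, a DNA methyltransferase made in formative cells, was at 8.49, 8.62 and 9.68 in wild type and 8.62, 7.51 and 7.38 in the PKM2 cells. None of these was called.

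Genes of a 2-cell-like state, a rare condition of ES cells that resembles the early embryo, gave no call either. Of 18 on the list 6 were tested, and 0 were called. Zscan4a, a member of the Zscan4 family, was at 7.50, 9.80 and 6.96 in wild type. It was not well above background on any PKM2 knock-in array, at least 13.8-fold lower (limma adjusted p = 0.123). Zscan4c was at least 9.51-fold lower and Zscan4f at least 18.2-fold lower. These genes are near-identical copies, so their probes may read each other. The PKM1 knock-in line had 1 of 3 arrays well above background for each. They passed the filter through the wild type arrays, where they were high, so no median is read for this list.

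Metabolic lists lay above the median of all genes and held 0 called genes. Of 27 genes of glycolysis and lactate transport 20 were higher (median 0.25), with daily medians of 0.70, 0.00 and 0.04, and the median was -0.01 at its lowest when the day 0 pair was left out. Eno1, the main enolase, was at 15.30, 17.35 and 15.94 in wild type and 16.62, 17.39 and 16.78 in the PKM2 cells. Hk1, the constitutive hexokinase, went the other way, with 12.12, 12.26 and 11.71 in wild type and 11.92, 10.78 and 10.73 in the PKM2 cells (-0.88 ± 0.27). Of 34 genes of pyruvate entry and the citric acid cycle 26 were higher (median 0.22, or 0.09 without the day 7 PKM2 array). Suclg1, a subunit of succinyl-CoA ligase, was at 11.54, 12.72 and 11.69 in wild type and 12.93, 13.42 and 13.27 in the PKM2 cells (1.22 ± 0.24, limma adjusted p = 0.125). Of 70 genes of the respiratory chain 55 were higher (median 0.15), with 49, 26 and 68 higher at days 0, 3 and 7. The sign of this median changed under normexp, under quantile normalization, with slide as a block and without the day 7 PKM2 array (-0.02). Of 20 genes of serine and one-carbon metabolism 16 were higher (median 0.42). Mthfd2l, a relative of Mthfd2, differed by 1.82 ± 0.47 and Mat2a, which makes the methyl donor S-adenosylmethionine, by 0.90 ± 0.26. Of 24 genes of cholesterol synthesis 20 were higher, with daily medians of 0.49, -0.46 and 1.03, so day 3 differed in sign from the other days, and the median of 0.37 was 0.02 without the day 7 pair. Msmo1, a demethylase of sterol precursors, differed by 1.13 ± 0.36. In the PKM1 knock-in line the list medians were, in the order above, 0.41, 0.05, 0.04, 0.30 and 0.33.

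Genes of the cell cycle were higher in 34 of 35 cases and called in 0, with a median of 0.35 and daily medians of 0.40, -0.11 and 0.79. At day 3, 22 of the 35 were lower, and the median over days was 0.07 without the day 7 PKM2 array and 0.61 without the day 3 PKM2 array. Mcm2, a subunit of the replicative helicase, was at 12.41, 13.01 and 12.01 in wild type and 13.68, 13.89 and 13.77 in the PKM2 cells (1.30 ± 0.27, limma adjusted p = 0.132). Polr1a, the large subunit of RNA polymerase I, was at 11.20, 11.96 and 10.88 in wild type and 12.68, 13.07 and 12.72 in the PKM2 cells, without overlap (1.47 ± 0.24, limma adjusted p = 0.12). Myc, a driver of ribosome production and growth, was at 8.20, 10.28 and 9.05 in wild type and 9.93, 10.75 and 9.90 in the PKM2 cells (1.01 ± 0.30), with -0.02 in the PKM1 knock-in line. Of 20 targets of p53 tested, 16 were lower and 4 higher (median -0.41), while at day 3 alone 13 were higher. The median was -0.13 without the day 7 PKM2 array. The PKM1 knock-in line had list medians of -0.45 for the p53 targets and 0.03 for the cell cycle. Pmaip1, above, was the one with the smallest p and was higher, while Perp, a desmosomal protein, was lower (-1.54 ± 0.47).

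Genes of the interferon response and MHC class I presentation were lower in 25 of 27 cases and called in 0. Their median was -0.75, with -0.87, -0.35 and -0.58 at days 0, 3 and 7, 14 were lower on all 3 days (2508 of the 15016 genes tested were), and 4 were at least 2-fold below wild type on all 3 days, where the share over all genes is 1.27%. The median of the list in the PKM1 knock-in line was 0.08. Of genes named next, Oas1a, Ifi35, Psmb8 and H2-Eb1 were lower there too, with differences of -1.97, -1.47, -0.40 and -1.68. Oas1a, an antiviral sensor of double-stranded RNA, was at 12.52, 12.10 and 10.26 in wild type and 10.30, 6.60 and 7.53 in the PKM2 cells, which overlap by a narrow margin (-3.48 ± 0.60, limma adjusted p = 0.12). Ifi35, an interferon-induced protein, was at 8.33, 8.58 and 7.60 in wild type and 7.09, 6.30 and 5.13 in the PKM2 cells (-2.00 ± 0.27, limma adjusted p = 0.11). Psmb8, an immunoproteasome subunit, was well above background on 1 of 3 PKM2 knock-in arrays and 3 of 3 wild type arrays. H2-Eb1, an MHC class II gene, was at 8.90, 8.34 and 8.85 in wild type and 7.07, 5.67 and 5.51 in the PKM2 cells (-2.62 ± 0.35, limma adjusted p = 0.11). Classical MHC class I genes differed less, with H2-K1 at -0.33, H2-D1 at -0.40 and their partner B2m at -0.22.

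Markers of fibroblasts, which could come from feeder cells or from mesenchyme formed in the embryoid bodies, were lower in 19 of 20 cases and called in 0. The median was -1.25, with -0.71, -0.48 and -2.51 at days 0, 3 and 7, and -0.18 in the PKM1 knock-in line. Without the day 7 PKM2 array it was -0.56. Col3a1, a fibrillar collagen, was at 7.70, 5.08 and 9.78 in wild type and 5.63, 4.98 and 5.49 in the PKM2 cells. Acta2, the smooth muscle actin, was at 7.08, 4.33 and 13.46 in wild type and 9.38, 4.41 and 4.25 in the PKM2 cells, so it was higher at day 0 and lower at day 7. Loxl1, which crosslinks elastin, was at 9.18, 7.99 and 8.98 in wild type and 7.64, 6.05 and 5.85 in the PKM2 cells (-2.21 ± 0.41, limma adjusted p = 0.121). Its difference in the PKM1 knock-in line was -1.26. The summed scaled signal of the 20 markers was 74425, 43246 and 101985 in wild type and 64815, 32553 and 44480 in the PKM2 cells. Fewer fibroblasts and less RNA per fibroblast cannot be told apart in bulk RNA, here or for any cell type below. Of 10 leukocyte markers 5 were tested, and the defining marker Ptprc was not well above background on any of the 6 arrays.

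**Figure D3:**
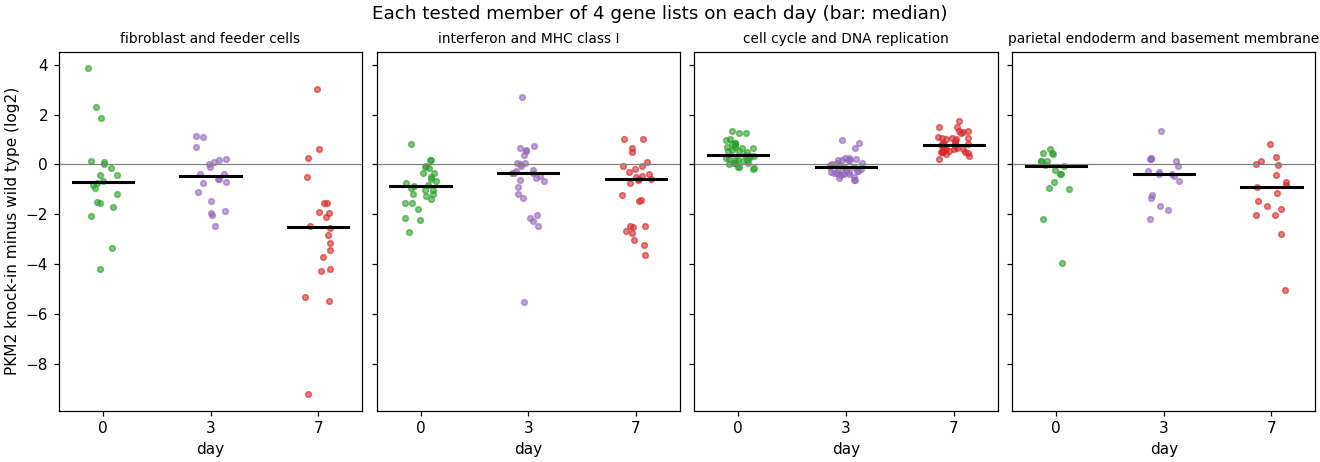
Difference of PKM2 knock-in from wild type (y axis, log2) of each tested member of 4 gene lists at days 0, 3 and 7 (x axis), 1 array against 1, with the median as a bar. The fibroblast list has medians of -0.71, -0.48 and -2.51, and the cell cycle list 0.40, -0.11 and 0.79.

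Differentiation lists differed by day, and the spread between days limits what they show. Trophoblast genes and simple keratins had daily medians of 0.70, -1.05 and -1.77 over 13 genes tested, with 10 lower and 0 called. Krt18, a keratin of simple epithelia, was at 12.22, 11.49 and 16.01 in wild type and 14.06, 10.44 and 10.99 in the PKM2 cells. Tfap2c, a trophoblast and germ cell transcription factor, was at 12.76, 12.66 and 11.64 in wild type and 11.21, 9.32 and 11.00 in the PKM2 cells (-1.84 ± 0.60). Parietal endoderm and basement membrane genes had a median of -0.68, with 14 of 17 lower. Thbd, the thrombomodulin of parietal endoderm and endothelium, was at 9.38, 5.04 and 8.49 in wild type, 5.42, 3.82 and 3.47 in the PKM2 cells and 8.93, 6.44 and 9.60 in the PKM1 knock-in line. Its difference between the knock-in lines was -4.08 (95% interval -5.90 to -2.27, limma adjusted p = 0.599). Without the day 7 PKM2 knock-in array the medians of the parietal endoderm and the endoderm transcription factor lists were 0.20 and 0.26, above 0. That fit still held the day 7 PKM1 knock-in array, so these values do not describe days 0 and 3 alone. At days 0 and 3 the medians were -0.05 and -0.39 for parietal endoderm and 0.20 and -0.29 for the endoderm transcription factors.

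Secreted proteins of visceral endoderm, the tissue that surrounds the epiblast, had daily medians of 0.35, -0.30 and -0.87 over 20 genes, and their summed scaled signal was 137367 in wild type and 126196 in the PKM2 cells at day 7, against 824582 in the PKM1 knock-in line. The median of -0.39 was 0.87 without the day 7 PKM2 knock-in array. That fit still held the day 7 PKM1 knock-in array, so 0.87 does not describe days 0 and 3 alone. Hnf4a, a transcription factor of endoderm, was at 6.93, 4.97 and 9.27 in wild type, 4.50, 2.32 and 6.78 in the PKM2 cells and 3.32, 3.26 and 12.73 in the PKM1 knock-in line. Cardiac muscle genes were lower in 12 of 17 cases (median -0.67), with Nkx2-5, a cardiac transcription factor, at 7.30, 6.04 and 6.12 in wild type and 5.31, 4.95 and 5.26 in the PKM2 cells. Genes of BMP signalling were lower in 12 of 17 cases (median -0.41, or -0.15 without the day 7 PKM2 array). The PKM1 knock-in line had list medians of -0.45 for cardiac muscle and -0.32 for BMP signalling. Id3, a direct target of BMP signals, was at 12.37, 11.73 and 11.99 in wild type and 10.91, 9.76 and 10.73 in the PKM2 cells, without overlap (-1.57 ± 0.28, limma adjusted p = 0.12), and Smad6, an inhibitor of the pathway, differed by -2.88 ± 0.64. Sox1, a marker of neural ectoderm, was at 7.63, 6.38 and 8.18 in wild type, 7.78, 8.75 and 9.71 in the PKM2 cells and 7.15, 6.54 and 7.72 in the PKM1 knock-in line, while the neural list as a whole had 8 of 16 higher. The 2 probes of Sox1 had mean differences from wild type of 0.27 and 1.35, and the signals given are those of the latter. Of 23 germline and meiosis genes 18 were tested and 14 were higher (median 0.27), among them Stk31 at 5.76, 6.06 and 4.25 in wild type and 7.00, 7.97 and 6.65 in the PKM2 cells (1.85 ± 0.30, limma adjusted p = 0.12). None of the genes in these lists was called.

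**Figure D4:**
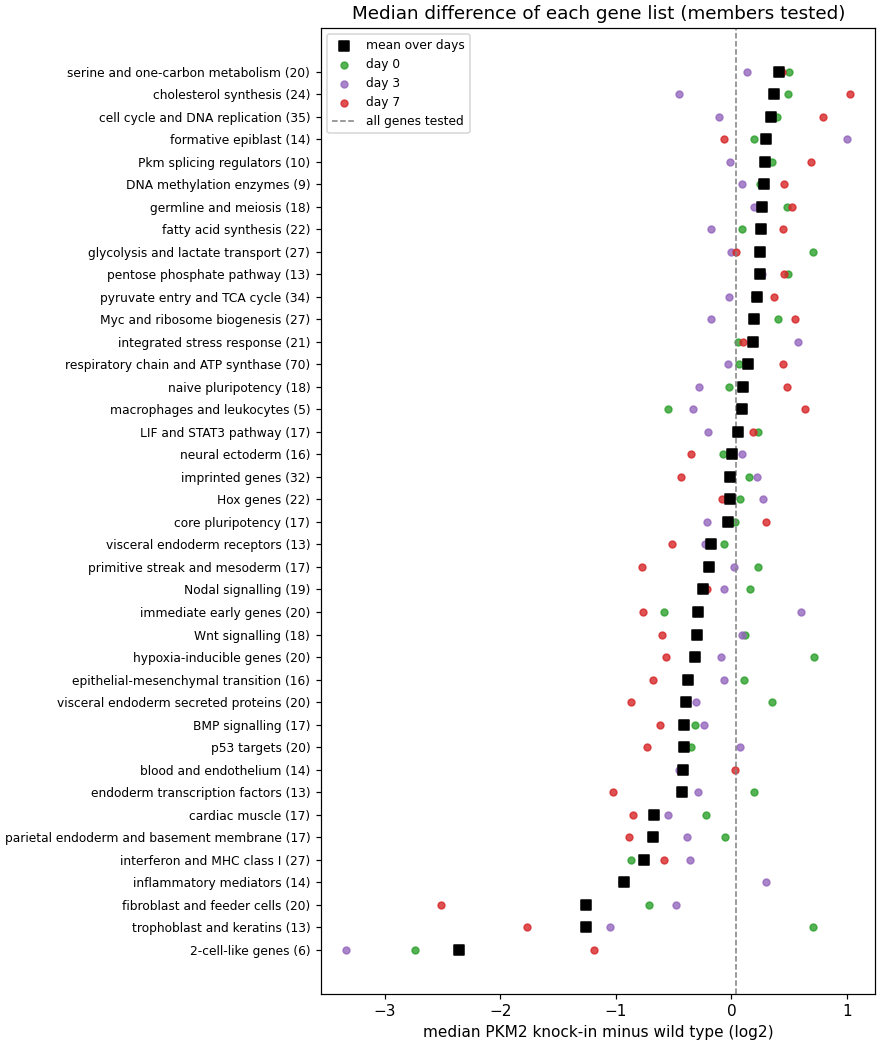
Median difference of PKM2 knock-in from wild type (x axis, log2) of each gene list with at least 5 members tested (y axis, members tested in parentheses), with black squares for the mean over days, coloured points for single days and a dashed line for all genes tested (0.04). The fibroblast list is at -1.25. The trophoblast list is also at -1.25 but at 0.04 without the day 7 pair. The 2-cell-like list, at -2.35, is plotted but not read, since its Zscan4 members passed the filter through the wild type arrays. It was at 0.31 with genes well above background on all 9 arrays.

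Single days rest on 1 array against 1 and were not tested. At day 0, 5.19% of genes were at least 2-fold higher in the PKM2 cells and 7.58% at least 2-fold lower. Beside Mest and the Y-linked genes, the largest differences upward at day 0 were in Cd109, a surface glycoprotein that binds TGF-beta (3.77), and Stra8, a gatekeeper of meiosis (3.75). Those downward were in Dnajb8, a chaperone of testis (-5.11), Vmn1r197, a vomeronasal receptor (-5.0), Agbl3, a carboxypeptidase of tubulin (-4.90), Lcn2, an iron-binding secreted protein (-4.71), and Rxfp3, a relaxin receptor (-4.34), whose other probe had a mean difference in the other direction. Each of these 5 was within 1 log2 unit of wild type at days 3 and 7.

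At day 3, 5.2% were at least 2-fold higher and 8.9% at least 2-fold lower. Ebf1, a transcription factor of B cells and mesenchyme, was higher by 4.01, Cnr1, a cannabinoid receptor, by 3.66 and Klf15, a metabolic transcription factor, by 3.47. Oas1a was lower at -5.50 and its neighbour Oas1f at -4.72, where the related sequences of the family may share probes. Also among the 5 largest differences downward were Arl14epl (-4.81), Fxyd4 (-4.03) and Fam183b (-3.99).

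At day 7, 8.03% were at least 2-fold higher and 12% at least 2-fold lower. Anxa1, an annexin with anti-inflammatory action, was at 14.29 in wild type and 6.2 in the PKM2 cells (-8.09), Ly6c1, a surface antigen of endothelium and myeloid cells, at 12.50 and 4.96 (-7.54) and Prss23, a secreted protease, at 12.24 and 4.90 (-7.34). Vgf, a precursor of neuropeptides, had -6.20 and Fhl2, a LIM domain protein of muscle, -5.36. In the PKM1 knock-in line at day 7, Anxa1 was at 13.61, Ly6c1 at 10.19, Prss23 at 11.32, Vgf at 11.20 and Fhl2 at 12.83. Against day 7 wild type, Fhl2 was thus higher there and the others lower. Upward at day 7 were Itgb2, the beta chain of leukocyte integrins (4.89), Gucy2c, an intestinal guanylate cyclase (3.87), Cubn, an endocytic receptor of visceral endoderm (3.82), and Rph3al, a regulator of exocytosis (3.75). Cubn was at 14.21 in the PKM1 knock-in line at day 7, above the 10.48 of the PKM2 cells, and 1 of its 2 probes had a mean difference in the other direction. Itgb2 was at 10.07 on the day 7 PKM2 knock-in array and between 4.50 and 5.52 on the other 8 arrays. All 5 leukocyte markers tested were higher at day 7 (median 0.64). Their summed scaled signal was 27444 on the day 7 PKM2 knock-in array and 12530 in day 7 wild type. This sum is carried by its brightest gene, Itgam, at 14.66 and 13.47 on these arrays, and does not show each marker. Itgam was also bright in wild type at days 0 and 3, at 13.95 and 13.11. Ptprc was not well above background on the day 7 PKM2 knock-in array. The part of leukocyte RNA in the day 7 differences was not tested.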

How the data were processed

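RNA of 9 samples (3 lines at days 0, 3 and 7) was hybridised to Agilent 1-colour arrays. The intensity values are the authors' deposited processed signals, made with Agilent Feature Extraction 10.10 per the submitters' processing notes, and the deposited value table differs from them by at most 0.497%. Control spots (3671 of 62976) and flagged spots were left out, and 3 genes lack 1 array. Of 55681 probes 27235 were named through RefSeq accessions. Signals were scaled to each array's 75th percentile, set to at least 5 and taken to log2. A probe had to be well above background on 3 or more of the 9 arrays, and the brightest probe stood for its gene.

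An additive model of line and day was fitted to all 9 arrays with limma 3.58.1 (R 4.3.3), with Benjamini-Hochberg adjustment over 15016 genes, 4 residual degrees of freedom and a median SE of 0.262. The number of arrays limits the precision. Deviations of same-day arrays from the means of their lines correlated at 0.289, 0.504 and 0.114 between wild type and PKM2 knock-in, and day stayed in the model. The fit was tested on simulated data. Python 3.11.15 with pandas 2.3.3, numpy 2.4.6 and matplotlib 3.10.9 summarised the results.

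Named genes were the probes of Pkm and Pklr, called genes, the 15 of smallest p per direction (since fewer than 10 were called) that had an established symbol, were well above background on the 3 arrays of the higher line and moved one way on 3 of 3 days, up to 4 members per list by size of moderated t, and the 5 largest differences per direction and day. Further list members and genes of day 7 were named after their values were seen. The comparison, the 42 lists and the rule were chosen with earlier results of these data known. Alternatives were other background corrections, normalizations, filters, floors, blocks and left-out arrays. Fits without the day 7 PKM2 knock-in array, or with slide as a block, still drew on the day 7 PKM1 knock-in array.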

Additional observations from a re-analysis of the deposited data

Results flagged for a closer look

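Probes without a gene name entered no comparison above. Of 28446 such probes, 24 were well above background on all 3 PKM2 knock-in arrays and on no wild type array, and 131 on all 3 wild type arrays and on no PKM2 knock-in array. Among the 27235 named probes the same counts were 11 and 137. What these unnamed probes read was not analysed here.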

How the results depend on the processing

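The 2 calls became 1 under normexp background correction, no filter, the filter on all 9 arrays, a floor of 1 and a floor of 20. They became 0 with the 6 arrays alone and with slide as a block, where the day 7 PKM2 knock-in array drops out, and 7 at an adjusted p under 0.1. Leaving out a day or an array gave 0 to 2. Mest passed the threshold in 17 of 23 alternatives (adjusted p 0.000136 to 0.38) and Nudt12 in 8 of 22 (0.0045 to 0.518). Without the replicate block by day 2 genes were called. The 30 genes chosen by call or smallest p kept their direction in every alternative run. The Pkm difference stayed below 0 (-1.42 to -0.46 with a day or array left out).

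List genes that changed direction were Bcl3 (-0.05 to 0.54 with a day or array left out), Cish (0.25 with slide as a block, -0.82 to 0.04), Foxa1 (0.33, -2.04 to 0.26), Fga (0.25), Cer1 (0.53, -3.53 to 1.31), Gata3 (0.19), Itgam (-0.17, -0.29 to 0.57), Fcer1g (-0.03, -0.19 to 0.30) and Itgb3 (0.05, -1.37 to 0.07). With the mean of probes Tcf7l2 was -0.29 and Fgfr4 -0.34 (-0.20 to 0.73). The cause was not tested.

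With slide as a block, list medians moved beyond their spread over days for hypoxia-inducible genes (0.57), core pluripotency (-0.30), DNA methylation enzymes (0.08), endoderm transcription factors (0.33), visceral endoderm secreted proteins (1.21) and receptors (1.01), parietal endoderm (0.42), trophoblast (0.19), interferon genes (-0.45), Nodal (-0.03), BMP (-0.19) and Hox genes (0.30). Normexp gave -0.24 for cardiac muscle, -0.13 for blood and -0.48 for interferon genes. The filter on all 9 arrays gave 0.31 for 2-cell-like genes, -0.06 for Nodal and 0.87 for Hox genes. With a day or array left out the ranges were 0.09 to 0.29 for the pentose phosphate pathway, -0.66 to 0.49 for hypoxia-inducible genes, -0.35 to 0.26 for naive pluripotency, 0.04 to 0.40 for DNA methylation enzymes, -0.94 to 0.26 for endoderm factors, -1.03 to 0.87 and -0.71 to 0.73 for visceral endoderm proteins and receptors, -1.19 to 0.20 for parietal endoderm, -1.98 to 0.04 for trophoblast, -1.76 to -0.23 for inflammatory mediators, -0.61 to 0.07 for epithelial-mesenchymal transition, -0.30 to 0.10 for Nodal, -0.47 to -0.15 for BMP and -0.27 to 0.35 for Hox genes. Of 42 list medians 20 kept their sign throughout. The single-day Mest differences, recomputed by a choice made after seeing the data, were 4.95, 5.49 and 5.11 with normexp.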
